A study of Homo sapiens with 6 samples.

Results

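The interferon-stimulated genes described here are 49 human genes chosen by name as transcripts that cells raise when interferons bind their receptors. All 49 were found among the 15802 genes of the deposited table. Type I interferons signal through JAK1 and TYK2 to a factor complex that holds STAT2 and IRF9 and binds a DNA element called the interferon-stimulated response element (ISRE) in the promoters of such genes. Their products sense viral nucleic acid, block viral entry or replication, or feed back on the pathway, and B cells, which also sense nucleic acid through endosomal Toll-like receptors, express many of them at a basal level.

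Bulk RNA-seq libraries came from SC1, a human B-cell lymphoma line, which served as the only line. In the tested condition 3 libraries were made from cells given bryostatin at 1 nM, a macrocyclic lactone that binds protein kinase C, and 3 libraries came from cells given the solvent DMSO. The sources used here do not state the time of exposure, and no label states whether replicates were separate cultures, so the spread between libraries may be technical. The libraries are called bryostatin 1 to 3 and DMSO 1 to 3.

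Depth was 18162161 to 18458633 expected counts in bryostatin libraries and 18545489 to 18915394 in DMSO libraries. B-cell markers were present in every library, with a summed level of 2970 to 3435 TPM (transcripts per 1000000, a length-corrected level) over 6 genes in bryostatin libraries and 2289 to 2363 TPM in DMSO libraries. T and NK markers summed to at most 0.300 TPM in bryostatin libraries and 0.0900 TPM in DMSO libraries, with CD3E at 0 in 5 of the 6 libraries. Of 7 myeloid markers 3 reached 1 TPM (S100A8, S100A9 and CD68), and the list summed to 60.2 to 138 TPM in bryostatin libraries and 105 to 176 TPM in DMSO libraries, so the groups overlapped. The epithelial, stromal and endothelial markers summed to 1.83 to 4.50 TPM in bryostatin libraries and 2.44 to 3.22 TPM in DMSO libraries. The part of these markers in the results below was not tested.

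Bryostatin 1 stood apart from bryostatin 2 and 3, and results are therefore given with and without it. Its log2 levels correlated with those of bryostatin 2 and 3 at 0.981 and 0.981 over all tested genes, against 0.994 between bryostatin 2 and 3. Transcript length moved with this. With genes of a mean count of at least 10 split into 3 equal length classes, the short class lay at a median of 0.20 above the DMSO mean on the log2 scale in bryostatin 1 and the long class at -0.21, against -0.06 and 0.05 in bryostatin 2 and -0.04 and 0.04 in bryostatin 3. The members had medians of 0.41, 0.45 and 0.32 in bryostatin 1 for the short, middle and long class, and medians of 1.06 to 1.34 across the 3 length classes in bryostatin 2 and 3. The 10 most abundant genes took 7.39% of counts in bryostatin 1, 6.3 and 6.31% in bryostatin 2 and 3, and 5.86 to 5.98% in DMSO libraries. The part of length and abundance in the members' levels was not tested.

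Some interferon-stimulated transcripts rose after bryostatin, and the levels of most lay higher in bryostatin 2 and 3 than in bryostatin 1. Of the 49 genes, 40 had enough counts to be tested, 15 rose, 0 fell and 25 did not pass (edgeR's quasi-likelihood test, Benjamini-Hochberg adjusted p under 0.05 over 11613 genes). Over all tested genes 4.56% changed, with 3.72% higher and 0.835% lower. None of the 40 members had an unadjusted p under 0.05 in the lower direction, against 32 in the higher direction, while over all 11613 genes 838 and 1338 did. DESeq2 and limma-voom also called 0 lower. The median log2 fold change (bryostatin over DMSO) of the 40 was 1.03, beside 0.00 (-0.00139) for all tested genes. Without bryostatin 1, 38 of 45 tested members rose and 0 fell, while 27% of all tested genes changed, with 13.8% higher and 13.2% lower. A gene passes the filter on low counts more easily when it is high in 1 group, so the tested members are not the whole list. Without bryostatin 1, XAF1, CMPK2, HERC6 and IFI44 entered the test through the bryostatin libraries, where they were high. In that setting IFI44L and IFIT2 also met the filter through the bryostatin libraries. In bulk RNA a change in the share of cells that express a gene and a change in its RNA per cell cannot be told apart.

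The members' count was also read against the background under other settings, in none of which a member fell. With RLE scaling, upper quartile scaling and a filter at a mean count of 10, 15 members rose each time, while 3.67, 3.92 and 3.73% of all tested genes rose and 0.93, 0.861 and 0.839% fell. Scaling by library size only gave 11 members against a background of 3.26% higher and 1.19% lower, and no filter gave 17 of 49 against 2.77% and 0.747%. DESeq2 called 23 of 45 members against 5.19% higher and 1.95% lower, and limma-voom 10 against 3.56% and 0.913%. Log2(TPM + 1) gave 6 members against 2.39% and 1.87%, and library quality weights gave 34 against 13.7% and 12.1%. Leaving out bryostatin 2 or 3 gave 7 members each, against 2.31 and 2.04% higher and 0.519 and 0.332% lower. Leaving out DMSO 1, 2 or 3 gave 4, 5 and 5 members, against 1.09, 1.25 and 1.13% higher and 0.0851, 0.11 and 0.102% lower.

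Each bryostatin library was also set on its own against the mean of the DMSO libraries, as log2 CPM (counts per 1000000 of the scaled library size). The median tested member lay 0.40 above the DMSO mean in bryostatin 1, 1.21 in bryostatin 2 and 1.18 in bryostatin 3, while the median of all tested genes was 0.01, 0.00 (0.00366) and -0.00 (-0.00103). Levels above every DMSO library were found for 25 members in bryostatin 1, 36 in bryostatin 2 and 35 in bryostatin 3, that is 62.5%, 90.0% and 87.5% of the 40, beside 41.8%, 35.1% and 35.7% of all tested genes. Bryostatin 1 was the lowest of the bryostatin libraries for 35 of 40 members, beside 5142 of 11613 tested genes. All bryostatin libraries lay above all DMSO libraries for 24 of 40 members, against 15.3% of all tested genes, and 0 members had the reverse, against 12.5%. In either direction the groups did not overlap for 60% of members and 27.8% of all tested genes.

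**Figure D1:**
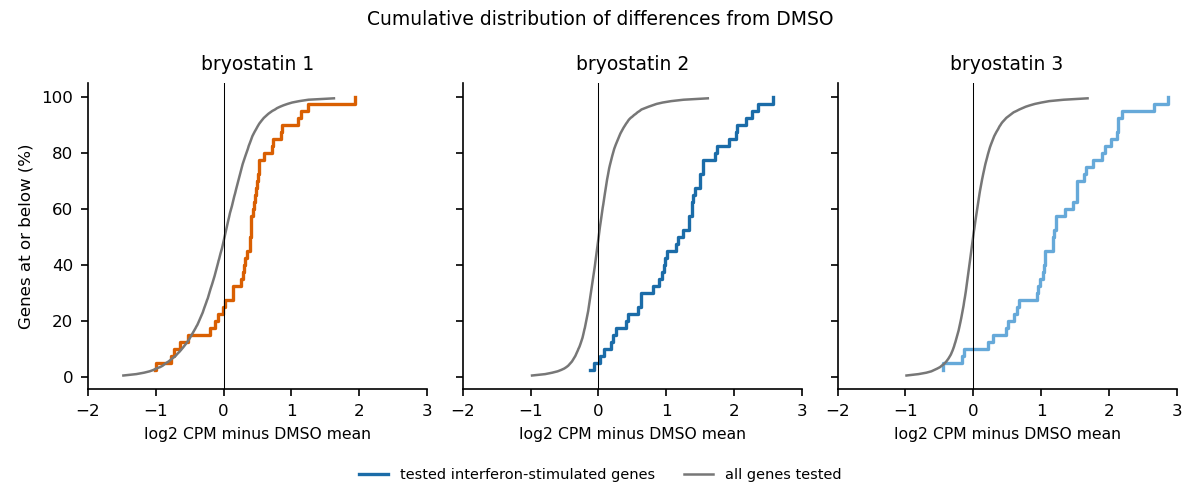
Cumulative share of genes (y, %) by difference in log2 CPM from the DMSO mean (x) in each bryostatin library, for the 40 tested interferon-stimulated genes (coloured steps; orange in bryostatin 1, blue in bryostatin 2 and 3) and for all 11613 tested genes (grey). The members' curve is shifted right by a median of 1.21 and 1.18 in bryostatin 2 and 3 and by 0.40 in bryostatin 1.

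Promoter sequences of members were read from RefSeq (GRCh38.p14) as windows from 250 bases before to 50 bases after each annotated start. Of the 49 genes, 37 matched at least 1 window and 49 windows were found in all. The ISRE core, searched as GAAA, any 2 bases and GAAA on both strands with overlapping matches allowed, occurred in 29 of 49 member windows (59.2%) and in 1255 of 35116 windows of all genes (3.57%). Counted by gene, 7 of 10 members that rose, 12 of 18 that were tested and did not pass, and 6 of 9 that were not tested had a match. Over all genes of the deposited table with a window the ISRE share was 4.07%. The STAT dimer element GAS, searched as TTCNNNGAA, occurred in 24.5% of member windows against 7.66% of all windows, and 6 of its 13 matches overlapped an ISRE match. The AP-1 element TGANTCA, which binds factors that act downstream of protein kinase C, occurred in 10.2% of member windows against 7.71% of all windows and 5.73% of the windows of genes in the deposited table. By gene it was found in 3 of 10 members that rose, 2 of 18 that did not pass and 0 of 9 that were not tested. The share over all genes of the deposited table with a window was 7.63%. For GAS the counts by gene were 3 of 10, 6 of 18 and 2 of 9, beside 8.75%. The kappaB consensus is the site of NF-kB factors. It occurred in 18.4% of member windows, against 11.3% of all windows and 13.3% of the windows of genes in the deposited table. By gene its counts were 3 of 10, 4 of 18 and 1 of 9, beside 17.1%. No AP-1 or kappaB match overlapped an ISRE match. A match is a description of these letters and not a measured binding site.

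The stretches below, on GRCh38.p14, show the nearest ISRE match lying wholly before the start in some of the members. They run 5′ to 3′ along the gene's strand and end before the start, with every whole ISRE match in the stretch in capitals. In IFIT5 and IFITM1 a further match spans the start and is not shown. Further matches wholly before the start in OAS3, IFIH1 and IFI44L lie outside the stretches and are not shown. In IFIT5 another such match is cut by the edge of the stretch and is not in capitals. The stretches include members that rose, and IFITM3 and IFI44L, which did not pass over all libraries. IFITM2, TRIM22, UBA7 and SP100, which kept their call in every alternative, are not among them. No ISRE match was found for these genes, through lack of a window or of a match. With bryostatin 1 left out, IFI44L was among the members that rose (log2 fold change 2.44), while IFITM3 again did not pass. IFI44L met the filter on low counts there through the bryostatin libraries, where it was high, so its rise is not independent support.
ISG15 (chr1:1013365-1013424, plus strand): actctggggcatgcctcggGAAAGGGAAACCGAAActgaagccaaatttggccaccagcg
BST2 (chr19:17405720-17405779, minus strand): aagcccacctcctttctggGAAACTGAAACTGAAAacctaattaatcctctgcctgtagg
OAS3 (chr12:112938437-112938473, plus strand): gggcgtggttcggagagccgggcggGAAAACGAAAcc
IFIH1 (chr2:162318685-162318730, minus strand): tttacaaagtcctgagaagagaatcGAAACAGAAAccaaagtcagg
ISG20 (chr15:88638922-88638981, plus strand): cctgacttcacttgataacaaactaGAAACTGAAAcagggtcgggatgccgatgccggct
IFIT5 (chr10:89414524-89414567, plus strand): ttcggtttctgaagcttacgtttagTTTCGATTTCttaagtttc
IFITM1 (chr11:313975-314034, plus strand): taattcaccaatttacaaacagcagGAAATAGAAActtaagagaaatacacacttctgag
IFITM3 (chr11:320861-320920, minus strand): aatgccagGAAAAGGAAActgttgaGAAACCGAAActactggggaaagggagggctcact
IFI44L (chr1:78620350-78620409, plus strand): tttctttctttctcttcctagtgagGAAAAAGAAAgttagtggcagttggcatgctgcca
In ISG15 and BST2 a pair of matches overlaps to form a longer repeat of GAAA, beginning 107 and 124 bases before the start for the nearer match. The IFIT5 match runs in the opposite orientation and so reads TTTC. In OAS3 and IFIH1 the match begins 12 and 21 bases before the start. IFITM3, whose level did not pass the test, held as many matches in its stretch as ISG15 did.

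Among the transcription factors of the response, none of 4 passed by edgeR, while 3 had an unadjusted p under 0.05, DESeq2 called 1 and limma-voom 0. IRF7, which amplifies interferon production, had 4.63, 8.46 and 8.02 CPM in bryostatin 1, 2 and 3, against 3.94, 3.82 and 2.85 CPM in DMSO 1, 2 and 3. Its groups did not overlap, and its log2 fold change was 0.99 ± 0.26 (SE; edgeR adjusted p = 0.0733, range over alternatives 1.69e-05 to 0.291). IRF9, the DNA-binding partner of STAT2, had 4.40, 7.06 and 8.30 CPM in bryostatin libraries, against 4.31, 3.28 and 4.44 CPM in DMSO libraries, where bryostatin 1 lay within the DMSO range. IRF1, a factor induced by interferon gamma and by NF-kB, lay at 20.1, 18.97 and 19.4 CPM in bryostatin libraries, against 15.2, 16.3 and 16.1 CPM in DMSO libraries. Here bryostatin 1 was the highest library, and the log2 fold change was 0.30 ± 0.09. STAT2 showed no group difference beyond its spread, with 22.3, 16.1 and 15.1 CPM in bryostatin libraries, against 14.9, 16.9 and 18.97 CPM in DMSO libraries. Without bryostatin 1, IRF7, IRF9 and IRF1 rose, by 1.22, 0.93 and 0.28 on the log2 scale, and STAT2 had -0.12.

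Of the sensors of viral nucleic acid, 5 of 9 tested rose by edgeR, 7 of 9 by DESeq2 and 2 of 9 by limma-voom. The OAS genes encode synthetases that make 2-5A, the activator of RNase L, on binding double-stranded RNA. OAS3 rose by 2.38 ± 0.43 on the log2 scale, a 5.20-fold change, with 6.17, 15.7 and 19.3 CPM in bryostatin libraries, against 3.58, 2.48 and 1.85 CPM in DMSO libraries (edgeR adjusted p = 0.0195). OAS1 rose by 1.196 ± 0.26, with 10.9, 23.5 and 20.4 CPM in bryostatin libraries, against 8.67, 7.21 and 8.08 CPM in DMSO libraries (adjusted p = 0.0416). OAS2 rose by 0.88 ± 0.19, with 52.1, 92.2 and 86.9 CPM in bryostatin libraries, against 43.0, 41.6 and 40.7 CPM in DMSO libraries (adjusted p = 0.0421). For all 3 genes every bryostatin library was above every DMSO library, and bryostatin 1 was the lowest of its group. OASL, a relative without synthetase activity, had 1.14, 2.53 and 2.80 CPM in bryostatin libraries, against 3.43, 1.99 and 2.01 CPM in DMSO libraries, and its groups overlapped.

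IFIH1, which encodes the RNA sensor MDA5, rose by 0.83 ± 0.14 to 21.3, 27.8 and 30.5 CPM in bryostatin libraries, against 15.7, 13.8 and 15.3 CPM in DMSO libraries (edgeR adjusted p = 0.0168). IFI16, a nuclear DNA sensor, rose by 0.46 ± 0.06 to 339.8, 321 and 337 CPM in bryostatin libraries, against 242, 235 and 248 CPM in DMSO libraries (adjusted p = 0.00473). IFI16 was raised about as much in bryostatin 1 as in bryostatin 2 and 3, at 0.49, 0.41 and 0.48 above the DMSO mean. DDX58, also named RIGI, which encodes the RNA sensor RIG-I, had 4.12, 6.84 and 5.99 CPM in bryostatin libraries, against 3.01, 2.74 and 3.17 CPM in DMSO libraries, without overlap (0.93 ± 0.22, adjusted p = 0.0533, range over alternatives 8.17e-05 to 0.229). DHX58, which encodes the related LGP2, stood at 1.28 ± 0.32 on the log2 scale (adjusted p = 0.0632). EIF2AK2, which encodes the translation-blocking kinase PKR, had 32.3, 61.3 and 61.6 CPM in bryostatin libraries, against 30.8, 30.0 and 35.3 CPM in DMSO libraries, so bryostatin 1 lay among the DMSO libraries. DDX60 was not tested, with 0, 3 and 9 expected counts in bryostatin libraries, against 1, 1 and 1 in DMSO libraries.

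The sensor calls rested on the full set of libraries and, except for IFI16, on the method. OAS1, OAS2, OAS3 and IFIH1 lost the call when any 1 library other than bryostatin 1 was left out, with edgeR adjusted p of 0.111 to 0.199, 0.114 to 0.201, 0.0591 to 0.125 and 0.0591 to 0.109. IFI16 lost it without DMSO 1 (0.0554) and DMSO 2 (0.0508). With all 6 libraries, edgeR with library size only gave 0.0584 for OAS1 and 0.0640 for OAS2. With the replicate number as a block it gave 0.0604 for OAS1. By limma-voom the adjusted p of OAS1, OAS2 and OAS3 was 0.0761, 0.0609 and 0.0572. On log2(TPM + 1), tested by limma, OAS1, OAS2, OAS3 and IFIH1 had 0.121, 0.146, 0.0681 and 0.103. Over all alternatives the adjusted p ranged up to 0.199, 0.201, 0.125, 0.109 and 0.0554 for these 5 genes.

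**Figure D2:**
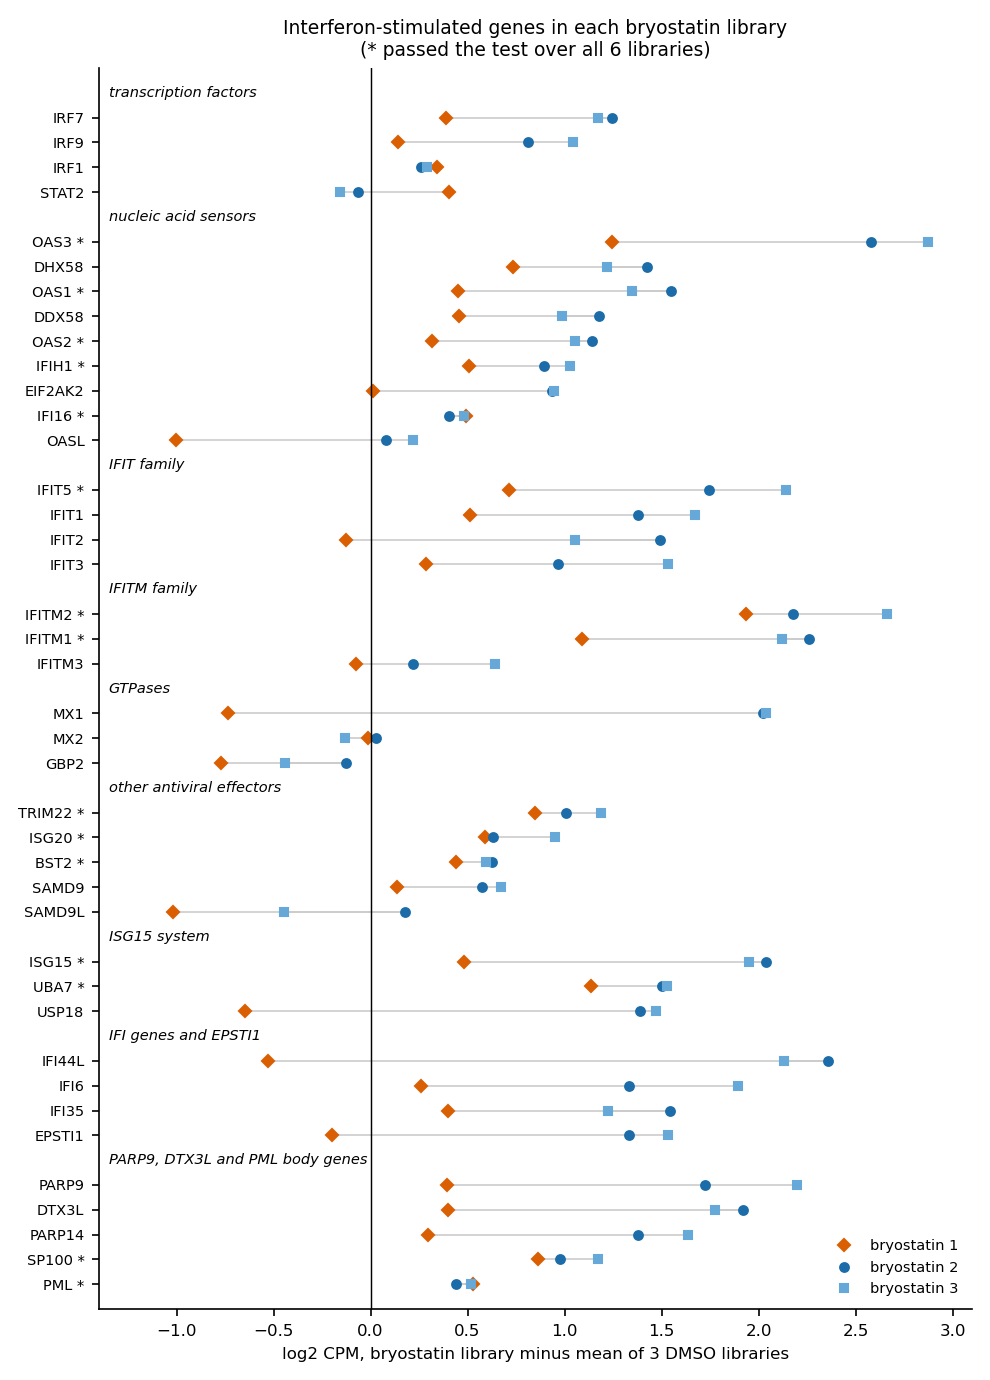
Difference in log2 CPM from the mean of the DMSO libraries (x) for the 40 tested interferon-stimulated genes (rows, grouped by role) in bryostatin 1 (orange diamonds), 2 (dark blue circles) and 3 (light blue squares), with the 15 genes that passed the test starred. Bryostatin 1 lies left of both other libraries for 35 of the 40 genes, against 5142 of all 11613 tested genes, and MX1, USP18 and IFI44L are among the genes that lie below 0 in it and above 0 in the others.

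The IFITM genes encode small membrane proteins that hinder fusion of viruses with the cell membrane, and 2 of 3 rose. IFITM2 rose 5.003-fold, with 11.1, 13.2 and 18.4 CPM in bryostatin libraries, against 2.39, 2.96 and 3.17 CPM in DMSO libraries (2.32 ± 0.22 on the log2 scale, edgeR adjusted p = 0.00119). IFITM1 rose by 1.93 ± 0.28, with 15.7, 35.5 and 32.3 CPM in bryostatin libraries, against 7.53, 7.16 and 7.29 CPM in DMSO libraries (adjusted p = 0.00813, and 0.0563, 0.0669 and 0.0647 without DMSO 1, 2 and 3; range over alternatives 1.80e-13 to 0.0669). In both genes the groups were well apart, and IFITM2 was the tested member that stood highest in bryostatin 1, at 1.94 above the DMSO mean. IFITM3 did not pass, with 1.43, 1.78 and 2.42 CPM in bryostatin libraries, against 2.28, 1.29 and 1.16 CPM in DMSO libraries. The 3 genes are close relatives whose reads can match more than 1 of them, and IFITM2 and IFITM3 held fractional expected counts, so the split between them is uncertain.

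The IFIT family includes proteins that bind viral RNA lacking host cap methylation, and 1 of its 4 genes passed. IFIT5 rose by 1.73 ± 0.37, with 2.06, 4.31 and 5.72 CPM in bryostatin libraries, against 1.19, 1.35 and 1.11 CPM in DMSO libraries (edgeR adjusted p = 0.0405). It lost the call without any 1 library other than bryostatin 1 (0.108 to 0.198, range over alternatives 1.62e-06 to 0.198). With all libraries it also lost the call in edgeR with library size only (0.0529) and with the replicate number as a block (0.0528). By limma-voom its adjusted p was 0.0849, and on log2(TPM + 1), tested by limma, 0.113. IFIT1 had 1.37, 2.59 and 3.19 CPM in bryostatin libraries, against 0.934, 1.08 and 0.793 CPM in DMSO libraries, without overlap but with an adjusted p of 0.0749. IFIT3 and IFIT2 had log2 fold changes of 1.06 ± 0.37 and 1.07 ± 0.50, and bryostatin 1 lay within the range of the DMSO libraries for IFIT2 and at its upper end for IFIT3. Without bryostatin 1 all 4 rose, by 2.04 (IFIT5), 1.62 (IFIT1), 1.32 (IFIT3) and 1.43 (IFIT2), beside 13.8% of all tested genes. IFIT2 met the filter on low counts there through the bryostatin libraries, with 27 and 19 expected counts, against 6, 11 and 9 in DMSO libraries. Its rise is therefore not independent support.

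None of the 3 tested GTPase genes passed by edgeR, DESeq2 or limma-voom, and 1 had an unadjusted p under 0.05. MX1, which encodes a dynamin-like GTPase that traps viral nucleocapsids, differed widely between bryostatin libraries, with 16.7, 114 and 115 CPM in bryostatin 1, 2 and 3, against 27.1, 30.0 and 26.9 CPM in DMSO libraries. Bryostatin 1 was below every DMSO library, while bryostatin 2 and 3 were 2.02 and 2.04 above the DMSO mean on the log2 scale. The log2 fold change was 1.55 ± 0.58 (edgeR adjusted p = 0.193), and 2.03 ± 0.06 without bryostatin 1 (adjusted p = 6.00e-16, range over alternatives 6.00e-16 to 0.461). Its paralogue MX2, which acts on retroviral capsids, had 72.5, 74.8 and 66.8 CPM in bryostatin libraries, against 72.9, 73.6 and 73.4 CPM in DMSO libraries, a log2 fold change of -0.04 ± 0.07. GBP2, a guanylate-binding protein gene best known as a target of interferon gamma, had -0.47 ± 0.28 (adjusted p = 0.422). GBP1 was not tested, with 1 to 10 expected counts in bryostatin libraries and 2 to 5 in DMSO libraries.

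**Figure D3:**
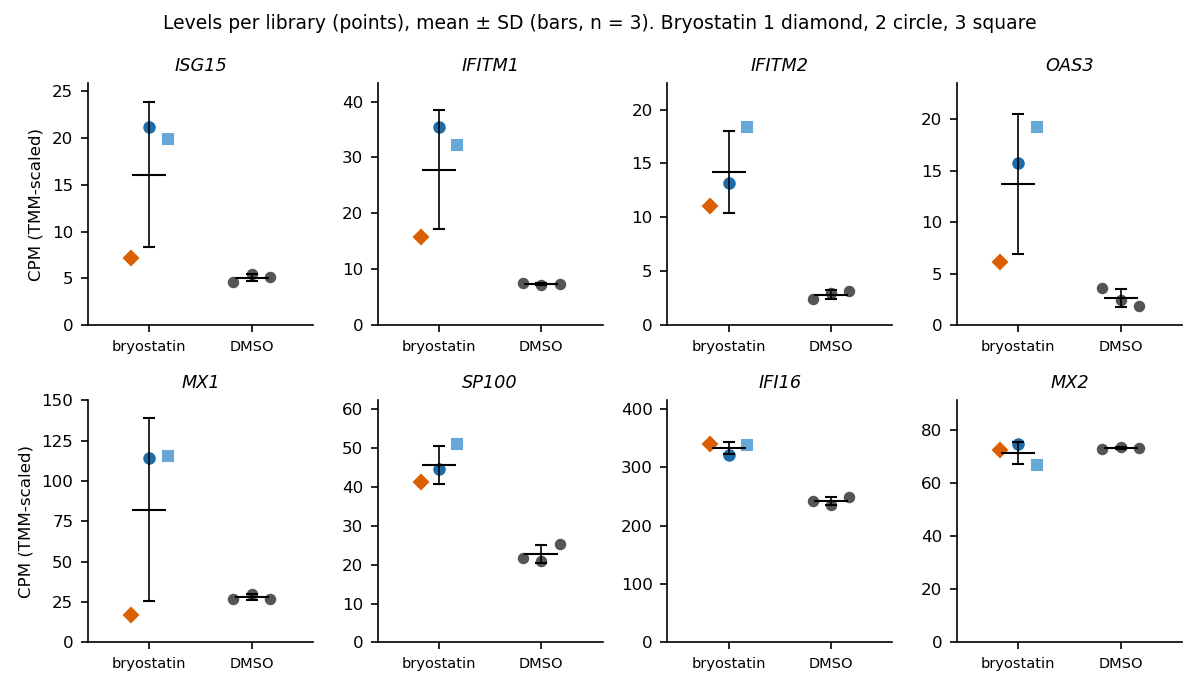
Level in CPM (y, linear from 0) in each library for 8 interferon-stimulated genes, with bryostatin libraries left and DMSO libraries (grey) right; black bars give the mean ± SD over 3 libraries. Among bryostatin libraries ISG15, IFITM1, OAS3 and MX1 are lowest in bryostatin 1 (orange diamond), which for MX1 lies below all DMSO libraries too, SP100 and IFI16 are raised in every bryostatin library, and MX2 stays between 66.8 and 74.8 CPM throughout.

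ISG15 is a ubiquitin-like protein that UBA7 activates, HERC5 attaches to targets in human cells and USP18 removes. ISG15 rose by 1.66 ± 0.37, with 7.14, 21.2 and 20.0 CPM in bryostatin libraries, against 4.67, 5.49 and 5.13 CPM in DMSO libraries (edgeR adjusted p = 0.0448). It lost the call without any 1 library other than bryostatin 1 (0.119 to 0.200, range over alternatives 2.60e-11 to 0.200). With all libraries it also lost the call in edgeR with library size only (0.0570). By limma-voom its adjusted p was 0.114, and on log2(TPM + 1), tested by limma, 0.116. UBA7 rose by 1.44 ± 0.19, with 4.57, 5.93 and 6.05 CPM in bryostatin libraries, against 2.08, 1.94 and 2.06 CPM in DMSO libraries (adjusted p = 0.00457). UBA7 was raised in every bryostatin library and kept its call in every alternative. USP18, which also restrains the type I receptor, had 0.914, 4.10 and 4.34 CPM in bryostatin libraries, against 1.92, 1.13 and 1.53 CPM in DMSO libraries. As for MX1, bryostatin 1 lay below and bryostatin 2 and 3 above all DMSO libraries. HERC5 was near 0, with at most 1 expected count in a library, and its relative HERC6 was not tested, with 9, 30 and 21 expected counts in bryostatin libraries, against 6, 6 and 7 in DMSO libraries. Without bryostatin 1, HERC6 was tested and rose by 2.03 ± 0.41 (edgeR adjusted p = 8.21e-04). It met the filter on low counts there through the bryostatin libraries, where it was high, so its rise is not independent support.

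Of the other antiviral effectors 3 of 5 tested rose. TRIM22, a ubiquitin ligase active against retroviruses, rose 2.04-fold, with 16.2, 18.1 and 20.4 CPM in bryostatin libraries, against 8.72, 9.36 and 8.72 CPM in DMSO libraries (1.03 ± 0.12, edgeR adjusted p = 0.00296). BST2, also called tetherin, which holds budding virions at the cell surface, rose by 0.55 ± 0.08, with 128, 146 and 143 CPM in bryostatin libraries, against 93.3, 101 and 89.0 CPM in DMSO libraries (adjusted p = 0.00864, and 0.0751 and 0.0723 without DMSO 1 and 3). ISG20, an exonuclease, rose by 0.74 ± 0.14, with 11.1, 11.4 and 14.3 CPM in bryostatin libraries, against 6.90, 7.37 and 7.77 CPM in DMSO libraries (adjusted p = 0.0226, and 0.0506 to 0.137 without any 1 library other than bryostatin 1). Across the alternatives the adjusted p of TRIM22, BST2 and ISG20 reached at most 0.0343, 0.0751 and 0.137. SAMD9, a restriction factor of poxviruses, had 29.8, 40.5 and 43.3 CPM in bryostatin libraries, against 26.4, 28.4 and 26.7 CPM in DMSO libraries (0.48 ± 0.14, adjusted p = 0.108). SAMD9L had 3.77, 8.78 and 5.66 CPM in bryostatin libraries, against 7.89, 7.05 and 8.35 CPM in DMSO libraries. XAF1, CMPK2 and RSAD2 were not tested. XAF1, a pro-apoptotic gene, had 3, 30 and 31.0 expected counts in bryostatin libraries, against 8.14, 5.02 and 9.09 in DMSO libraries, so it again lay low in bryostatin 1. CMPK2, which encodes a nucleotide kinase, had 3, 14 and 15 expected counts in bryostatin libraries, against 7, 5 and 5 in DMSO libraries. RSAD2, which encodes viperin, had 3, 6 and 5 in bryostatin libraries, against 4, 8 and 1 in DMSO libraries. Without bryostatin 1, XAF1 and CMPK2 were tested and rose by 2.08 ± 0.38 and 1.38 ± 0.47 (edgeR adjusted p = 3.28e-04 and 0.0356). Both met the filter on low counts there through the bryostatin libraries, where they were high, so their rise is not independent support. RSAD2 was again not tested.

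None of the 4 tested IFI genes, EPSTI1 included, passed by edgeR over all libraries, while all 4 had an unadjusted p under 0.05, DESeq2 called 1 and limma-voom 0. IFI44L, of little-known function, had 0.343, 3.23 and 2.75 CPM in bryostatin libraries, against 0.467, 0.538 and 0.634 CPM in DMSO libraries, with bryostatin 1 below every DMSO library (1.94 ± 0.68, edgeR adjusted p = 0.171). EPSTI1 had 2.06, 6.14 and 7.09 CPM in bryostatin libraries, against 2.70, 2.69 and 1.85 CPM in DMSO libraries. IFI6, which encodes a protein that restrains flavivirus replication, had a log2 fold change of 1.36 ± 0.43 and IFI35, a partner of NMI, 1.15 ± 0.39. IFI44 and IFI27 were not tested, with 2, 15 and 27 and 2, 11 and 11 expected counts in bryostatin libraries, against 1, 3 and 3 and 7, 5 and 8 in DMSO libraries. Without bryostatin 1, IFI44L, EPSTI1, IFI6, IFI35 and IFI44 rose, by 2.44, 1.45, 1.69, 1.42 and 3.14, and IFI27 did not pass (0.75 ± 0.49). There IFI44 and IFI44L met the filter on low counts through the bryostatin libraries, where they were high, so their rise is not independent support.

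SP100 and PML, scaffold proteins of PML nuclear bodies, both rose. SP100 rose 2.01-fold, with 41.3, 44.7 and 51.1 CPM in bryostatin libraries, against 21.9, 21.0 and 25.4 CPM in DMSO libraries (1.01 ± 0.12, edgeR adjusted p = 0.00291). PML rose by 0.50 ± 0.09, with 22.7, 21.3 and 22.5 CPM in bryostatin libraries, against 16.1, 16.3 and 14.8 CPM in DMSO libraries (adjusted p = 0.0211). PML lost the call without any 1 library other than bryostatin 1 (0.0550 to 0.145, range over alternatives 3.08e-04 to 0.249). With all libraries PML also lost it in edgeR with the replicate number as a block (0.0797) and in limma on log2(TPM + 1) (0.249). For both genes the bryostatin libraries lay close together. PARP9 and DTX3L, which form a complex of an ADP-ribosyltransferase and a ubiquitin ligase, had 1.2003, 3.18 and 4.45 CPM and 2.06, 6.09 and 5.50 CPM in bryostatin libraries, against 0.727, 1.13 and 0.845 CPM and 1.87, 1.45 and 1.32 CPM in DMSO libraries. Neither group pair overlapped, but the adjusted p was 0.0900 and 0.0731. PARP14, another ADP-ribosyltransferase, had a log2 fold change of 1.27 ± 0.48. Without bryostatin 1, PARP9, DTX3L and PARP14 rose by 2.08, 1.90 and 1.59.

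Members also differed by how they stood in bryostatin 1. In that library 4 members lay more than 1 above the DMSO mean on the log2 scale, against 23 and 26 in bryostatin 2 and 3. Over all tested genes the 98th percentile of this difference was 1.01, 0.95 and 1.01 in bryostatin 1, 2 and 3. Among tested members, 7 of 40 (17.5%) lay below every DMSO library in bryostatin 1, beside 40.2% of all tested genes. They were MX1, USP18, IFI44L, OASL, SAMD9L, GBP2 and MX2. The first 3 of these were among the members that stood high in bryostatin 2 and 3, at 1.39 to 2.36. In contrast IFI16, PML, IRF1 and ISG20 stood at 0.34 to 0.59 in bryostatin 1 against 0.26 to 0.95 in the other libraries.

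Chromosome position was compared for members within 200 kb of each other (RefSeq, GRCh38.p14), which gave 10 groups holding 25 of the 49 genes. OAS1, OAS3 and OAS2 (chromosome 12, 112906962 to 113011723) all rose. In the IFITM group (chromosome 11, 307816 to 320860) the middle and one outer gene rose and IFITM3 did not pass. MX2 and MX1 (chromosome 21, 41362027 to 41459214) had log2 differences of 0.03 and 2.02 in bryostatin 2 and of -0.13 and 2.04 in bryostatin 3, so these neighbours stood apart in the libraries where MX1 was high. SAMD9 and SAMD9L (chromosome 7, 93099518 to 93148385) had log2 fold changes of 0.48 and -0.35. PARP9, DTX3L and PARP14 (chromosome 3, 122527924 to 122730840) had log2 differences of 1.72, 1.92 and 1.38 in bryostatin 2 and of 2.196, 1.77 and 1.64 in bryostatin 3. PARP9 and DTX3L run in opposite directions from starts that lie side by side, and 1 ISRE match at chr3:122564332-122564341 falls in both promoter windows. Their annotations overlap at the starts, and the use of strand in counting is not stated, so reads there could be given to either gene.

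**Figure D4:**
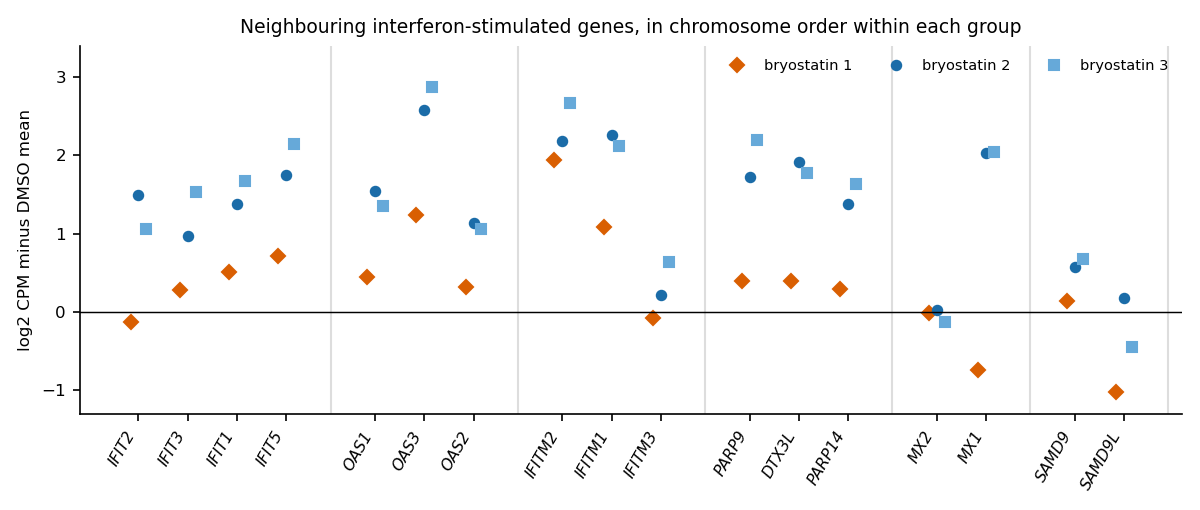
Difference in log2 CPM from the DMSO mean (y) in each bryostatin library for 6 groups of neighbouring interferon-stimulated genes, in chromosome order within a group (x). PARP9, DTX3L and PARP14, none of which passed, stand at 1.38 to 1.92 in bryostatin 2 and 1.64 to 2.196 in bryostatin 3, while MX1 reaches 2.02 and 2.04 in bryostatin 2 and 3 beside MX2 at 0.03 and -0.13.

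Basal levels, compared between genes per length in TPM, spanned a wide range. In DMSO libraries BST2 (196 TPM) and IFI16 (149 TPM) were the most abundant members, followed by MX2 at 36.3 TPM, IFITM1 at 27.7 TPM and ISG15 at 20.9 TPM, and 19 of the 49 averaged under 1 TPM. The members summed to 684, 1114 and 1109 TPM in bryostatin 1, 2 and 3, against 594, 586 and 595 TPM in DMSO libraries. BST2 and IFI16 made up 58.3, 44.8 and 44.8% of that sum in bryostatin libraries, against 57.9, 59.2 and 57.9% in DMSO libraries. Members with a mean of at least 10 TPM numbered 16 in bryostatin libraries and 10 in DMSO libraries.

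The rest of the interferon pathway was read from a list of 115 genes, of which 94 were in the table and 81 were tested. Of these 18 rose and 1 fell, beside 3.72% higher and 0.835% lower over all tested genes. Of the 18 risers, 16 were among the 44 tested genes of the list of further interferon-induced genes. The lists were chosen with earlier results of these data known. The median log2 fold change was 0.28 over the 81 genes and 0.64 over the 44, beside 0.00 (-0.00139) for all tested genes. Of 21 interferon genes only IFNK was in the table analysed here, with 1, 0 and 0 expected counts in bryostatin libraries, against 1, 0 and 0 in DMSO libraries. None of 6 receptor genes passed by edgeR. An unadjusted p under 0.05 was reached by 1 of them, higher after bryostatin, and DESeq2 called 1 and limma-voom 0. IFNAR1 and IFNAR2, the chains of the type I receptor, had log2 fold changes of -0.13 ± 0.08 and -0.17 ± 0.10.

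Of 9 tested kinase, STAT and feedback genes, 1 rose, beside 3.72% of all tested genes. JAK1, a kinase of every interferon receptor, rose by 0.49 ± 0.09, with 69.6, 83.1 and 82.8 CPM in bryostatin libraries, against 56.4, 55.5 and 55.6 CPM in DMSO libraries (edgeR adjusted p = 0.0202, and 0.0748 to 0.133 without any 1 library other than bryostatin 1; range over alternatives 7.88e-08 to 0.175). TYK2, the other kinase of the type I receptor, had 0.12 ± 0.11.

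Of 15 tested sensing and adaptor genes, 1 rose, beside 3.72% of all tested genes. It was SAMHD1, a deoxynucleotide hydrolase that limits retroviruses, at 0.36 ± 0.08 (edgeR adjusted p = 0.0365, and 0.108 to 0.224 without any 1 library other than bryostatin 1, range over alternatives 1.87e-05 to 0.273). IRF3, the factor that first induces interferon, had 0.17 ± 0.13 and CGAS, a cytosolic DNA sensor, 0.32 ± 0.19. STING1, the adaptor of CGAS, was not tested, with 3, 3 and 5 expected counts in bryostatin libraries, against 4, 6 and 8 in DMSO libraries. The gene that fell was IRF4, a B-cell and plasma-cell factor that interferon does not typically induce, with 169, 220.0 and 210.0 CPM in bryostatin libraries, against 312, 326 and 324 CPM in DMSO libraries (-0.68 ± 0.10, adjusted p = 0.00798, range over alternatives 1.79e-09 to 0.0623, and 0.0505, 0.0605 and 0.0623 without DMSO 1, 2 and 3).

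Among the further interferon-induced genes the relatives of SP100 rose with it. SP140, SP110 and SP140L, chromatin readers of lymphoid cells, rose by 1.65 ± 0.11, 1.16 ± 0.11 and 1.33 ± 0.17 (edgeR adjusted p = 1.45e-04, 9.82e-04 and 0.00412). SP140 had 32.7, 34.8 and 39.8 CPM in bryostatin libraries, against 11.6, 11.4 and 11.3 CPM in DMSO libraries. The 4 genes lie within 380.4 kb on chromosome 2 (230165186 to 230545606), and bryostatin 1 stood at 0.86 to 1.51 above the DMSO mean, against 0.98 to 1.60 and 1.17 to 1.79 in bryostatin 2 and 3. SP110 and SP140 overlap in the annotation, so their reads may not be fully separable. IFI30, a lysosomal thiol reductase, rose by 1.73 ± 0.11, and UBE2L6, the conjugating enzyme of ISG15, by 0.89 ± 0.10. IFI30, SP140, SP110, SP140L and UBE2L6 kept their calls in every alternative. The other risers were PARP10, TRIM21, MOV10, NMI, APOBEC3G, TRIM38, PSMB8, TMEM140, TRIM5, RNF213 and APOBEC3F, at 0.63 to 1.07 on the log2 scale, and each lost its call in at least 1 alternative that left out a library.

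**Figure D5:**
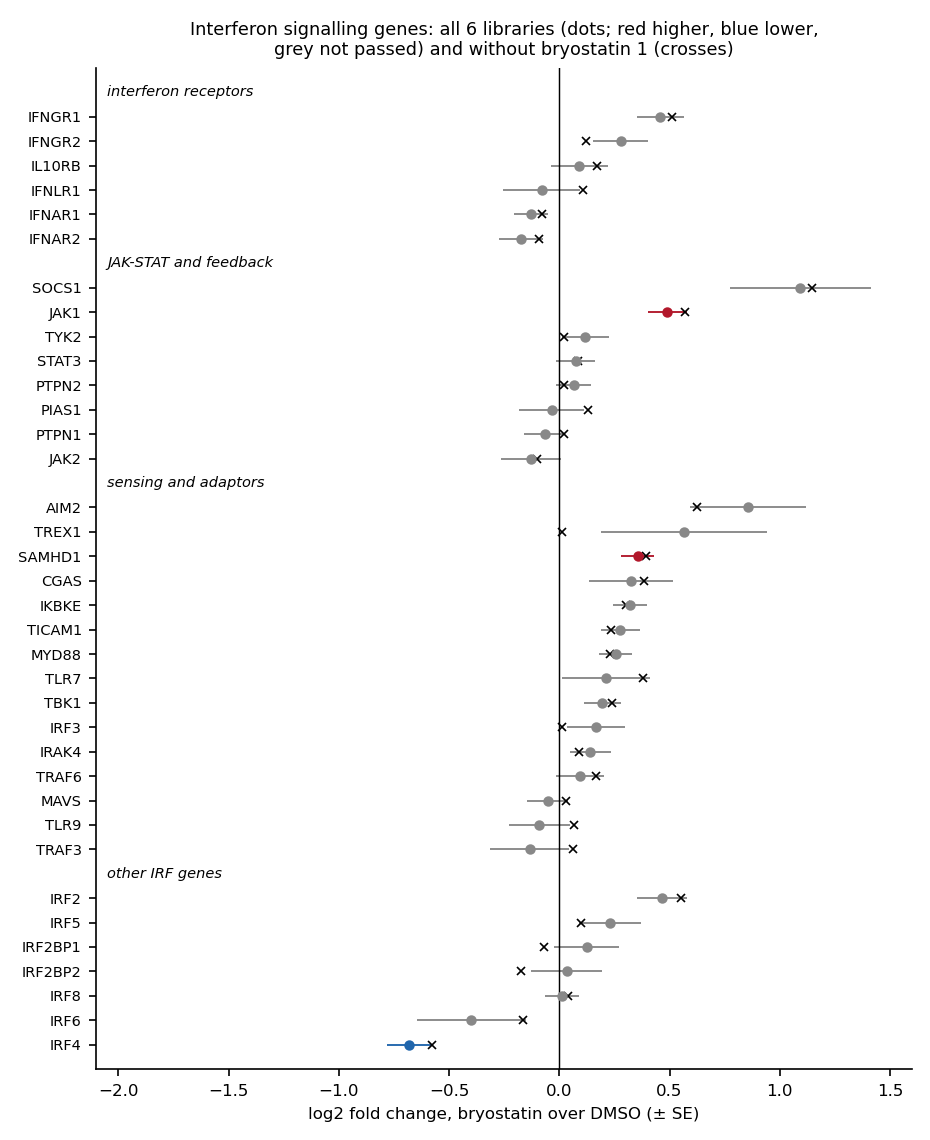
Log2 fold change, bryostatin over DMSO (x, ± SE), for tested genes of interferon reception, signalling, sensing and the IRF family (rows, grouped by role), over all 6 libraries (dots, red for higher, blue for lower, grey for not passed) and without bryostatin 1 (crosses). JAK1 and SAMHD1 are the red genes and IRF4 the blue one, while IFNAR1 and IFNAR2 stay near 0.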

How the data were processed

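Poly(A)-selected RNA was sequenced as paired ends, per the labels' protocols. The authors deposited expected counts, FPKM and TPM per gene and library. The submitters' processing notes name RSEM 1.2.28, HISAT2 2.2.1, GRCh38 and DESeq2 1.40.2, without roles. Annotation and strand use: not given in the sources used here.

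Deposited expected counts (6.31 to 7.22% not whole) were rounded. R 4.3.3 with edgeR 4.0.16 ran the main test, a robust 2-sided quasi-likelihood fit with TMM scaling, after filterByExpr at a minimum count of 10. Benjamini-Hochberg adjustment covered all 11613 tested genes at a threshold of 0.05. The SE was the log2 fold change divided by the root of F. Log2 CPM used a prior count of 2. Deposited counts and FPKM of DMSO libraries gave transcript lengths, and deposited TPM values gave levels. Alternatives changed scaling, filter, tool (DESeq2 1.42.0, limma 3.58.1), unit, block or libraries. No libraries were duplicates (chi-square per gene 2.73 or more). Named were members passing with all libraries or without bryostatin 1, the 3 next by p, untested members, pathway genes passing and fixed ones, of which 1 is not reported here; further members were named after their values were seen. Members and lists were chosen with earlier results of these data known. Coordinates (1-based) and promoters are from RefSeq, with 15767 of 15802 Entrez identifiers matched.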

Additional observations from a re-analysis of the deposited data

How the results depend on the processing

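The 15 members that rose kept their direction in every alternative, and IFITM2, TRIM22, UBA7 and SP100 kept their call in each. The count of members that rose was 15 with RLE or upper quartile scaling or a mean count of at least 10, 17 without a filter, 11 by library size only, 10 by limma-voom, 23 by DESeq2, 34 with library quality weights (0.104 for bryostatin 1, 1.22 to 1.90 for the others) and 6 on log2(TPM + 1). No member fell in any. Leaving out 1 library gave 4 to 38 members, 138 to 3183 genes and 5 to 46 pathway genes, the highest each time without bryostatin 1. Without bryostatin 2 or 3 the members numbered 7 and 7, and without DMSO 1, 2 or 3 they numbered 4, 5 and 5. DESeq2 called 865 genes and 30 pathway genes, quality weights 2988 and 47, and log2(TPM + 1) 10 pathway genes, against 529 and 19. The median of all genes was -0.08 on the TPM scale. The cause of these shifts was not tested. With the replicate number as a block, 12 members rose and 338 genes and 12 pathway genes changed. Same-numbered libraries did not deviate together (correlations -0.212 to 0.0311), and 0 of 3 bryostatin libraries correlated best with its own number. Bryostatin 1 stood apart and may have shaped these correlations, so they cannot decide whether the numbers pair the libraries. The filter on low counts left 9 of 49 members untested, and without it all 49 were tested.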
